A study of Mus musculus with 8 samples.

Results

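The transcripts described here were those of 10 mouse genes of the ERBB signalling system, namely the receptor genes Egfr, Erbb2, Erbb3 and Erbb4 and the EGF-like ligand genes Areg, Ereg, Hbegf, Btc, Tgfa and Nrg1. They were chosen by name, and all 10 were found among the 27179 genes of the count table. Of these, 9 passed the filter on low counts that left 14382 genes for testing, and Erbb4 did not.

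Reads per gene were counted in 8 whole primary tumours, 4 from 4T1.13-VC (vector control) cells and 4 from 4T1.13-miR-21-KD (miR-21 knockdown) cells. 4T1.13 is a metastatic mouse mammary carcinoma line, and the question addressed was how the transcriptome of its tumours differed when miR-21 activity was reduced in the carcinoma cells. Both lines carried the pEZX-AM03 miArrest lentivirus with an mCherry reporter and hygromycin resistance; in miR-21-KD cells its H1 promoter drove a sequestering RNA for mature miR-21, and in VC cells it drove a scrambled sequence. Pools of 6 clones made up each line, and the mice were female BALB/c animals aged 7 to 8 weeks with an intact immune system. All tumours of a group came from the same pool, so differences between the pools cannot be told apart from those due to reduced miR-21 activity. The vector was in the injected cells alone, so stroma and immune cells of the host carried their own miR-21. Each mouse received 100000 cells in the mammary fat pad. The labels give day 14 for the recovery of the tumours and the methods give day 12. The study describes the miR-21-KD tumours as starting to regress at that time. Sequestration leaves the miR-21 gene itself intact, and the table holds no measure of mature miR-21. The gene of its precursor, Mir21a, was at 0 counts in all 8 tumours, which allows a level of up to 0.221 to 0.245 CPM (the reads of a gene scaled to a common library size) by the limit of 3 counts per library, so the knockdown could not be checked here.

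Total counts ranged from 12134849 to 13592695 per tumour, and the median log2 fold change of all tested genes was -0.01. With the quasi-likelihood test of edgeR at an adjusted p under 0.05, 39.1% of all tested genes differed between the groups, 19.6% with the higher and 19.5% with the lower level in miR-21-KD tumours. All p-values measure the spread between 4 tumours per group, which the study describes as biological replicates, and do not cover differences between the pools of clones. Since whole tumours were sequenced, fewer cells of a type and less RNA per cell cannot be told apart in any value below. Epithelial transcripts were present in all tumours, with the 9 listed markers of carcinoma and simple epithelium summing to 1310 to 2260 CPM in VC and to 903 to 2020 CPM in miR-21-KD samples.

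ERBB receptors are tyrosine kinases of the cell surface that pair with each other when a ligand binds. EGFR binds amphiregulin, TGF-alpha and EGF, and shares betacellulin, HB-EGF and epiregulin with ERBB4, whereas neuregulins 1 and 2 bind ERBB3 and ERBB4 and neuregulins 3 and 4 bind ERBB4. ERBB2 has no known ligand and acts as a partner of the other receptors, and ERBB3 has little kinase activity of its own. The ligands are made as membrane proteins and are released by ADAM proteases, and the active receptors signal through RAS and MAP kinases and through PI3 kinase. In the mammary gland the family is known for its part in ductal growth and lactation, and in breast cancer for amplification of ERBB2.

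miR-21 pairs with its targets through the seed, bases 2 to 8 of the mature strand, and its sequence is shown because the study sequestered this RNA. The seed is in capitals in the first line below, taken from RefSeq on GRCm38.p6 at chr11:86584120-86584141 on the minus strand. The second line shows the only stretch among the receptor and ligand genes that passed the filter in which the 3′ UTR (the untranslated end of the messenger RNA) holds the complement of this seed, with the matching letters in capitals. It lies in Egfr at chr11:16915542-16915571 on the plus strand.
mmu-miR-21a-5p: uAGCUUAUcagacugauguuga
Egfr 3′ UTR: ctctactttcttttgATAAGCTtgtgcttg

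The letters ATAAGCT were searched in the longest 3′ UTR of each gene in the GENCODE M21 basic annotation of GRCm38. Egfr held 1 match, 3702 bases after the stop codon in a 3′ UTR of 6303 bases, and it lay beyond the end of the Egfr gene in RefSeq at position 16913907, so that the authors' reads need not have been counted there. Erbb4 held 2 matches in 7855 bases, and the other 8 members held 0. Among the 13417 tested genes with a 3′ UTR, 7.71% held a match, with a median length of 1157 bases. A match is a description of letters and says nothing of whether the RNA is bound.

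Among the receptors, Egfr and Erbb3 rose in miR-21-KD tumours, Erbb2 did not pass the test and Erbb4 was near 0. Erbb3 had the largest fold of the members. Of the 9 tested members, 4 had a higher level after knockdown and 0 a lower one, beside 19.6% and 19.5% of all tested genes, and since the members were chosen with results known these counts stand side by side without a test. For 3 of the 9, Egfr, Erbb3 and Nrg1, every miR-21-KD tumour lay above every VC tumour, as was so for 16.3% of all tested genes, and for none did every miR-21-KD tumour lie below, beside 18.9%.

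Egfr (Entrez 13649), on chromosome 11 at 16752203 to 16913907 of GRCm38.p6, encodes the EGF receptor. In VC tumours 1 to 4 its level was 33.3, 10.1, 15.5 and 18.2 CPM, and in miR-21-KD tumours 1 to 4 it was 81.0, 34.3, 55.4 and 44.0 CPM. The groups did not overlap, but VC tumour 1 and miR-21-KD tumour 2 lay within about 1 CPM of each other at the boundary. The mean rose from 19.2 ± 9.94 to 53.7 ± 20.2 CPM (SD, n = 4 each). The log2 fold change was 1.48 (SE 0.38), a fitted fold of 2.78, with an adjusted p of 0.0187 in edgeR. Without VC tumour 3 the adjusted p was 0.0569 at a log2 fold change of 1.38, and a test for changes above 1.5-fold gave 0.106.

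Erbb3 (Entrez 13867), on chromosome 10 at 128567523 to 128589635, encodes the neuregulin receptor with little kinase activity. Its level was 8.92, 1.84, 3.55 and 2.37 CPM in VC tumours 1 to 4. It was 24.6, 9.51, 27.8 and 25.3 CPM in miR-21-KD tumours 1 to 4. VC tumour 1 was the highest of its group and miR-21-KD tumour 2 the lowest of its own, and these again met at the boundary without overlap, with 121 reads in each. The mean rose from 4.17 ± 3.25 CPM to 21.8 ± 8.31 CPM (SD, n = 4 each), with a log2 fold change of 2.38 (SE 0.53), a fitted fold of 5.20, and an adjusted p of 0.0123 in edgeR. The call held when any 1 tumour was left out, with log2 fold changes of 2.12 to 3.07. It was lost in the test for changes above 1.5-fold, where the adjusted p was 0.0582.

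Erbb2 (Entrez 13866), on chromosome 11 at 98412484 to 98437716, encodes the receptor with no known ligand. VC tumours 1 to 4 held 31.6, 36.1, 40.0 and 33.8 CPM, and miR-21-KD tumours 1 to 4 held 29.0, 31.9, 36.7 and 32.1 CPM. These 8 values lay close together and the groups overlapped. The means were 35.4 ± 3.61 and 32.4 ± 3.17 CPM (SD, n = 4 each), and the log2 fold change of -0.13 (SE 0.11) had an adjusted p of 0.377 in edgeR. Erbb2 varied least among the tested members, with coefficients of variation of 10.2% (VC) and 9.77% (miR-21-KD). Over 19 alternative analyses its log2 fold change lay between -0.19 and -0.07, the narrowest range among the members.

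Erbb4 (Entrez 13869), on chromosome 1 at 68031884 to 69108576, encodes the receptor that binds neuregulins and several EGF-like ligands. It had 1, 0, 0 and 0 reads in VC tumours 1 to 4 and 2, 0, 1 and 1 reads in miR-21-KD tumours 1 to 4. All these counts lie under the limit of 3 counts per library, so Erbb4 was not detectable above it and no fold is given.

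**Figure D1:**
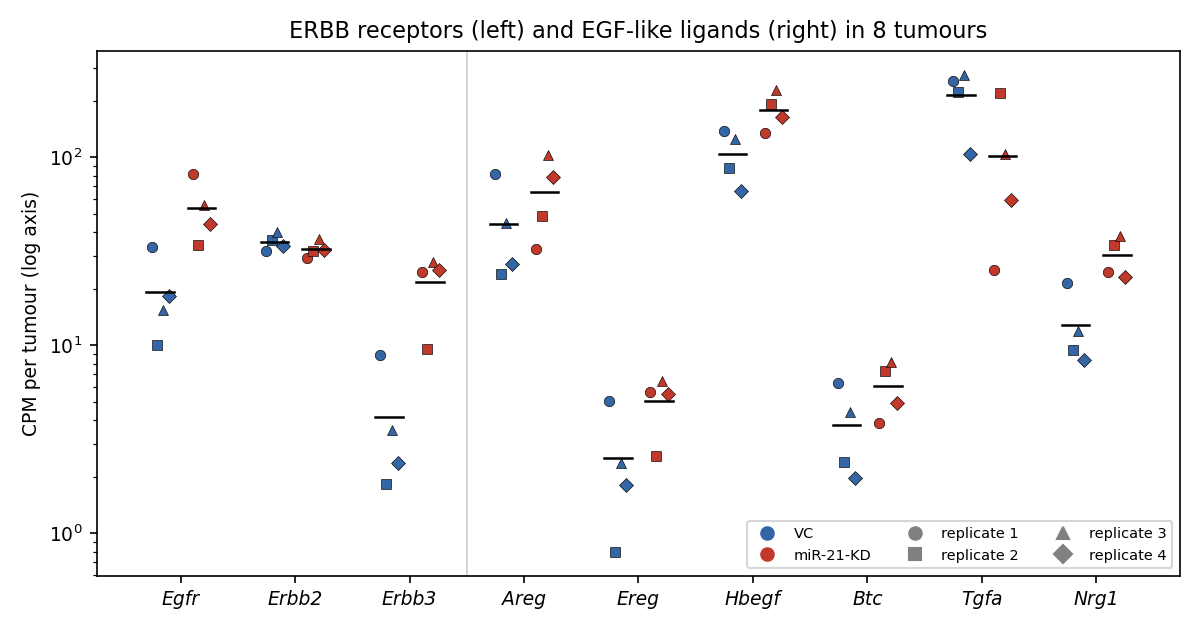
Level of each tested member in every tumour, in CPM on a log axis, with blue for VC and red for miR-21-KD, a marker shape for each replicate number and a bar at the mean of each group (n = 4). The red points lie above all blue points for Egfr, Erbb3 and Nrg1, nearly coincide with them for Erbb2, and spread from 25.2 to 219 CPM for Tgfa. Erbb4, with at most 2 reads in any tumour, is left out.

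Per kilobase of exon, which allows levels of different genes to be compared, Erbb2 stood highest of the receptors in VC tumours at 7.06 ± 0.721 CPM per kb (SD, n = 4). Egfr followed at 1.76 ± 0.907 and Erbb3 at 0.693 ± 0.540 CPM per kb. In VC tumours every Erbb2 value lay above every Egfr value, whereas the ranges of Egfr and Erbb3 overlapped. With these exon lengths the order of the means was unchanged in miR-21-KD tumours, at 6.47 ± 0.632 CPM per kb for Erbb2, 4.90 ± 1.84 for Egfr and 3.62 ± 1.38 for Erbb3. Here the ranges of neighbours overlapped, since Egfr reached 7.39 CPM per kb in miR-21-KD tumour 1, above the 5.79 CPM per kb of Erbb2 in the same tumour. The exon length used for Egfr, 10.954 kb, includes 3′ UTR beyond its end in RefSeq, where reads need not have been counted. A shorter length would raise Egfr per kb, so the order of Erbb2 and Egfr in miR-21-KD tumours depends on the annotation. Other lengths were not tested.

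Expressed as shares of the summed receptor level per kb, Erbb2 made up 58.2% to 85.5% in VC tumours and 33.5% to 57.5% in miR-21-KD tumours. The share of Erbb3 ranged from 3.62% to 13.7% in VC tumours and from 14.3% to 28.7% after knockdown. Egfr made up 10.9% to 28.1% and 27.5% to 42.8%, and among Erbb2, Erbb3 and Egfr only the ranges of Egfr overlapped. Those of Erbb4, which rest on single reads, overlapped too, at 0% to 0.0564% and 0% to 0.0774%. Shares of a sum move together by construction, so they are given as a description with no test. The receptor shares also depend on the exon length used for Egfr.

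Among the ligands, Nrg1 and Hbegf rose in miR-21-KD tumours. Areg, Ereg and Btc had higher means in miR-21-KD tumours and Tgfa a lower mean, but none of these passed the test. Nrg1 was the only ligand of the 6 whose groups did not overlap, beside 16.3% of all tested genes with every miR-21-KD tumour above, so this count is no result about the ligands.

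Nrg1 (Entrez 211323), on chromosome 8 at 31807452 to 32891609, encodes neuregulin 1, a ligand of ERBB3 and ERBB4. VC tumours 1 to 4 held 21.4, 9.49, 11.9 and 8.34 CPM. The level in miR-21-KD tumours 1 to 4 was 24.6, 34.3, 38.2 and 23.2 CPM. VC tumour 1 was the highest of its group and lay just under miR-21-KD tumour 4. The mean rose from 12.8 ± 5.93 to 30.1 ± 7.33 CPM (SD, n = 4 each), with a log2 fold change of 1.23 (SE 0.31), a fitted fold of 2.35, and an adjusted p of 0.0172 in edgeR. Without VC tumour 3 the log2 fold change was 1.19 and the adjusted p 0.0525, and a test for changes above 1.5-fold gave 0.113. The receptor gene Erbb3 also rose, whereas Erbb4 was not detectable.

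Hbegf (Entrez 15200), on chromosome 18 at 36504927 to 36515805, encodes HB-EGF, a heparin-binding ligand of EGFR and ERBB4. Its level was 138, 87.2, 126 and 66.2 CPM in VC tumours 1 to 4, and 134, 191, 228 and 165 CPM in miR-21-KD tumours 1 to 4. The groups overlapped only through VC tumour 1, which lay just above miR-21-KD tumour 1. The mean rose from 104 ± 33.2 to 179 ± 39.9 CPM (SD, n = 4 each). The log2 fold change was 0.78 (SE 0.25), a fitted fold of 1.72, with an adjusted p of 0.0366 in edgeR. This was the call that changed most often. It was lost when VC tumour 2 (adjusted p 0.0966), VC tumour 3 (0.0562), VC tumour 4 (0.0551) or miR-21-KD tumour 2 (0.0592), 3 (0.0947) or 4 (0.0675) was left out, without a filter on low counts (0.0551) and in the test for changes above 1.5-fold (0.375), with the log2 fold change between 0.61 and 0.95 over all alternatives.

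Tgfa (Entrez 21802), on chromosome 6 at 86195038 to 86275744, encodes TGF-alpha, a ligand of EGFR alone. It had the widest relative spread of the tested members in the miR-21-KD group, but not in the VC group. VC tumours 1 to 4 held 254, 223, 275 and 104 CPM, and miR-21-KD tumours 1 to 4 held 25.2, 219, 105 and 59.3 CPM. VC tumour 4 lay far under the rest of its group, at the level of miR-21-KD tumour 3, and miR-21-KD tumour 2 lay at the level of VC tumour 2. Its coefficients of variation were 35.6% (VC) and 82.7% (miR-21-KD). Means of 214 ± 76.2 and 102 ± 84.4 CPM (SD, n = 4 each) gave a log2 fold change of -1.07 (SE 0.59) with an adjusted p of 0.171 in edgeR. Without miR-21-KD tumour 2 the log2 fold change was -1.77 and the adjusted p 0.0239, and limma-voom with quality weights, which gives less weight to tumours far from their group, gave -1.53 and 0.0142. That tumour was the highest of its group, so its removal had to widen the difference and is no support for a fall. With any other single tumour left out, the adjusted p in edgeR lay between 0.113 and 0.323.

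Areg, Ereg and Btc lie next to each other on chromosome 5 with Epgn, the gene of the ligand epigen. These are the 4 protein-coding genes between 91027517 and 91402994, a stretch of 375.5 kb in GRCm38.p6. Areg encodes amphiregulin, an EGFR ligand that acts downstream of the oestrogen receptor in ductal growth, Ereg encodes epiregulin and Btc betacellulin. All of Areg, Ereg and Btc had their highest VC value in tumour 1, their next in tumour 3, and their highest miR-21-KD value in tumour 3. The same held for Erbb3, Hbegf and Nrg1, which lie on other chromosomes, so this order was not particular to the cluster.

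Areg (Entrez 11839) was at 81.6, 24.0, 44.7 and 27.2 CPM in VC tumours 1 to 4. In miR-21-KD tumours 1 to 4 it was at 32.6, 48.7, 103 and 78.4 CPM. VC tumour 1 lay above all but miR-21-KD tumour 3, so the groups overlapped widely. The means were 44.4 ± 26.4 and 65.7 ± 31.4 CPM (SD, n = 4 each), with a log2 fold change of 0.57 (SE 0.46) and an adjusted p of 0.346 in edgeR. The adjusted p stayed at or above 0.0539 over 19 alternative analyses. With each tumour left out, the log2 fold change ranged from 0.26 (without miR-21-KD tumour 3) to 1.04 (without VC tumour 1).

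The promoter of Areg is shown because, of the promoters in the table used, it alone among the member genes held both a cyclic AMP response element, TGACGTCA, and a TATA motif, TATAAA. It covers the 250 bases before the start of Areg, chr5:91139349-91139598 on the plus strand of GRCm38.p6 in RefSeq, with these motifs in capitals.
Areg promoter: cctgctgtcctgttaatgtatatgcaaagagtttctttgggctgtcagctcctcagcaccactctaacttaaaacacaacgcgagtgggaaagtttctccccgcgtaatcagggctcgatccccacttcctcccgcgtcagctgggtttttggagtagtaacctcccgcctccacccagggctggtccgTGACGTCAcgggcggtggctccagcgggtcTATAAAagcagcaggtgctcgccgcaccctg

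The cyclic AMP response element began 61 bases and the TATA motif 31 bases before the start. Searched on both strands from 250 bases before to 50 bases after the start, TGACGTCA was in 1.79% and TATAAA in 13.6% of 32851 promoters. The AP-1 motif TGANTCA, in which N is any base, was in 7.81% and CCAAT in 37.4%. Promoters were found in the table for Egfr, Erbb2, Erbb4, Areg, Btc and Tgfa; that of Erbb2 held CCAAT 41 bases before the start, and those of Egfr, Erbb4, Btc and Tgfa held none of the 4 motifs. Ereg, Erbb3, Nrg1 and Hbegf had no entry. Neither the presence nor the absence of these letters says whether a factor was bound.

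Ereg (Entrez 13874), at 91074617 to 91093649 of chromosome 5, had the lowest mean of the 6 ligands in both groups, although Btc lay below it in miR-21-KD tumours 1 and 4. Its level was 5.09, 0.798, 2.36 and 1.80 CPM in VC tumours 1 to 4 and 5.66, 2.59, 6.49 and 5.48 CPM in miR-21-KD tumours 1 to 4. VC tumour 1 lay among the miR-21-KD tumours, and the other 3 VC tumours lay below all of them. The means were 2.51 ± 1.84 and 5.06 ± 1.70 CPM (SD, n = 4 each), with a log2 fold change of 1.00 (SE 0.51) and an adjusted p of 0.148 in edgeR. When the replicate numbers entered the fit as a block, the adjusted p was 0.0283 at a log2 fold change of 1.16, without VC tumour 1 it was 0.0292 at 1.61, and with quality weights in limma-voom it was 0.0154 at 1.52. VC tumour 1 was the highest of its group, so its removal had to widen the difference and is no support for a rise. With any other single tumour left out, the adjusted p in edgeR lay between 0.0862 and 0.279.

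Btc (Entrez 12223), at 91357261 to 91402994 of chromosome 5, was at 6.27, 2.39, 4.41 and 1.96 CPM in VC tumours 1 to 4. It was at 3.88, 7.31, 8.12 and 4.93 CPM in miR-21-KD tumours 1 to 4. VC tumours 1 and 3 lay within the range of the miR-21-KD tumours and VC tumours 2 and 4 below it. The means were 3.76 ± 1.98 and 6.06 ± 1.98 CPM (SD, n = 4 each), and the log2 fold change of 0.68 (SE 0.40) had an adjusted p of 0.198 in edgeR.

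**Figure D2:**
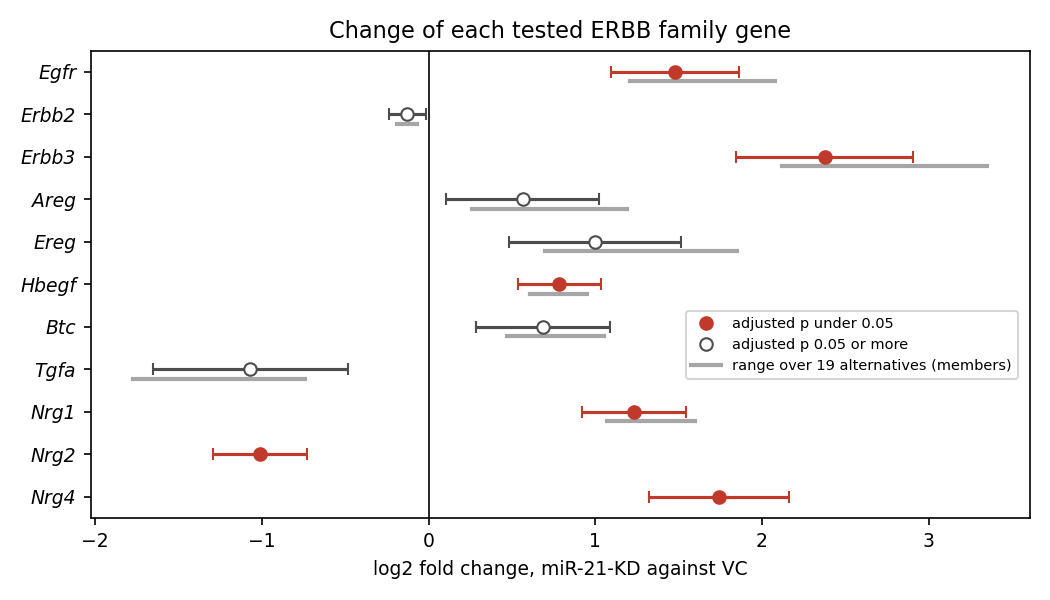
Log2 fold change of miR-21-KD against VC tumours for the tested genes of the family, with bars of 1 SE, filled red points where the adjusted p was under 0.05 and open points elsewhere. Grey lines under the 9 members span the estimates of 19 alternative analyses, and none of them crosses 0; Nrg2 and Nrg4 are shown without such a line.

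Per kilobase of exon, 3 ligands stood far above the others in VC tumours, namely Tgfa at 47.3 ± 16.8, Hbegf at 43.9 ± 14.0 and Areg at 36.5 ± 21.7 CPM per kb (SD, n = 4 each). These neighbours did not differ beyond their spread. Nrg1, Btc and Ereg were at 1.62 ± 0.752, 1.31 ± 0.690 and 0.609 ± 0.445 CPM per kb, and these neighbours also lay within their spread. In miR-21-KD tumours the order of the means became Hbegf at 75.5 ± 16.8, Areg at 54.1 ± 25.9, Tgfa at 22.5 ± 18.6, Nrg1 at 3.82 ± 0.930, Btc at 2.11 ± 0.690 and Ereg at 1.22 ± 0.412 CPM per kb.

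Tgfa made up 29.9% to 45.6% of the summed ligand level per kb in VC tumours and 5.89% to 27.4% in miR-21-KD tumours, and these ranges did not overlap. The share of Hbegf was 30.9% to 36.9% in VC tumours and 45% to 59.6% after knockdown. The share of Areg overlapped, at 18.3% to 35.9% and 22.7% to 42.2%, and Nrg1 stayed small at 0.980% to 1.45% and 1.92% to 3.31%. The difference between the mean shares of Nrg1 was 1.26 percentage points from levels per kb and 4.74 percentage points when levels were not divided by length, a comparison added after seeing the data. The groups were thus separate in the share of Tgfa and overlapped in its level, each share being set against the other ligands of the same tumour.

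**Figure D3:**
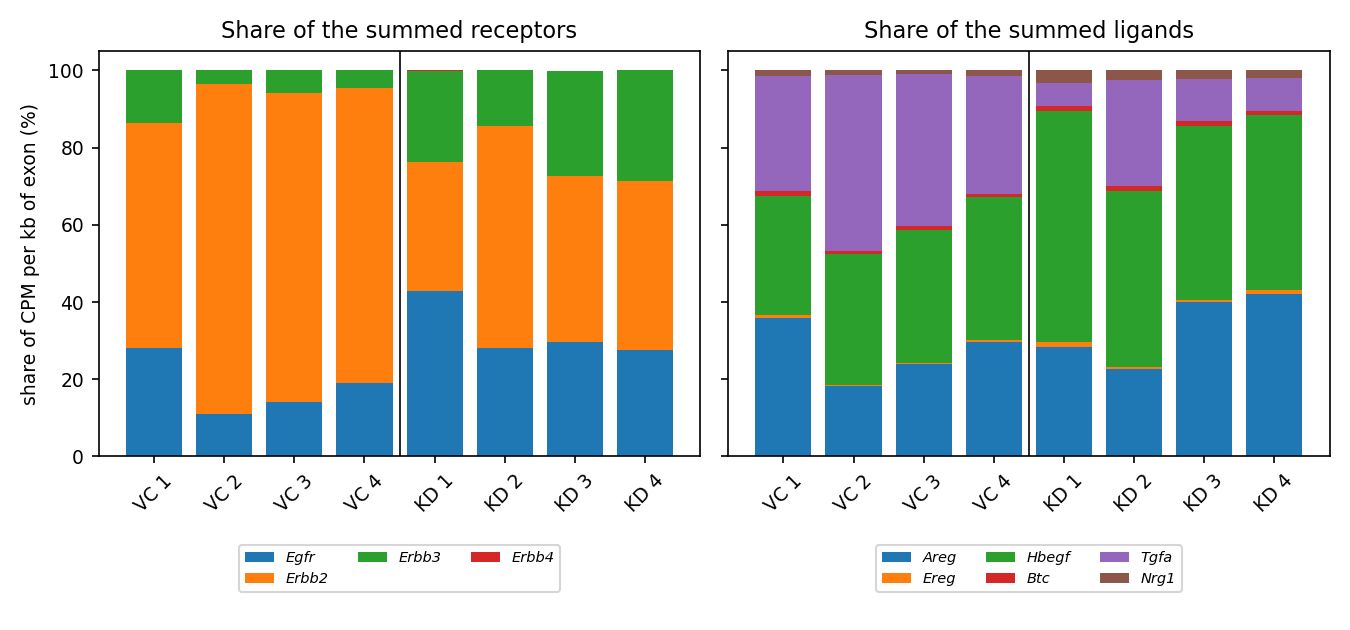
Share of each receptor (left) and each ligand (right) in the sum of CPM per kb of exon, in percent, with 1 bar per tumour and a line between the VC and miR-21-KD groups. The orange Erbb2 segment takes 58.2% to 85.5% in VC and 33.5% to 57.5% in miR-21-KD bars, and the purple Tgfa segment narrows to 5.89% in miR-21-KD tumour 1.

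Of the 5 further ligands of the family 2 were tested, of which 1 rose and 1 fell, too few to set against the 19.6% and 19.5% of all tested genes. Nrg4, which encodes neuregulin 4, an ERBB4 ligand, was at 1.40, 0.718, 1.497 and 2.13 CPM in VC tumours 1 to 4 and at 5.34, 2.20, 4.63 and 7.12 CPM in miR-21-KD tumours 1 to 4. The groups did not overlap, though miR-21-KD tumour 2 was close to VC tumour 4, and the log2 fold change was 1.74 (SE 0.42) with an adjusted p of 0.0149 in edgeR. Nrg2, encoding neuregulin 2, was at 2.14, 3.83, 3.39 and 2.62 CPM in VC and at 1.46, 1.34, 2.03 and 1.10 CPM in miR-21-KD tumours 1 to 4, with each miR-21-KD tumour under each VC tumour, a log2 fold change of -1.01 (SE 0.28) and an adjusted p of 0.0236. The call of Nrg2 was lost without VC tumour 2 (adjusted p 0.0684), VC tumour 3 (0.0673), miR-21-KD tumour 1 (0.0542) or miR-21-KD tumour 4 (0.0674), whereas Nrg4 kept its call when any 1 tumour was left out. Egf and Epgn, with VC means of 0.449 ± 0.142 and 0.452 CPM and miR-21-KD means of 0.836 ± 0.210 and 0.359 CPM, did not pass the filter, although each miR-21-KD tumour lay above each VC tumour for Egf, with 3 to 7 reads in VC and 7 to 13 in miR-21-KD samples. Fitted without the filter, Egf had a log2 fold change of 0.85 (adjusted p 0.137) and Epgn one of -0.36 (adjusted p 0.59). Nrg3 had 0 reads in all 8 tumours.

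Transcripts of genes known to act in ligand release were also counted, while release itself was not measured. Of 10 genes for ADAM proteases and the iRhom complex that carries ADAM17 to the surface, 7 were higher (Adam8, Adam9, Adam12, Adam15, Adam19, Rhbdf2 and Frmd8) and 1 was lower (Rhbdf1). The median log2 fold change was 0.50 beside -0.01 over all tested genes, and 70% of the list was higher beside 19.6% of all tested genes. This list and the other pathway lists were written with earlier results of these data known, so such counts stand side by side without a test. Adam8, a protease of leukocytes and carcinoma cells, was at 507, 324, 422 and 429 CPM in VC tumours 1 to 4 and at 1024, 678, 1108 and 959 CPM in miR-21-KD tumours 1 to 4, without overlap, with a log2 fold change of 1.16 (SE 0.19) and an adjusted p of 0.00601 in edgeR. Rhbdf2, which encodes iRhom2, was at 60.8, 52.3, 65.8 and 75.4 CPM in VC and at 107, 91.1, 120 and 113 CPM in miR-21-KD tumours 1 to 4, with a log2 fold change of 0.76 (SE 0.13) and an adjusted p of 0.00664. Adam15 was the third gene by adjusted p, at 179 ± 13.0 and 246 ± 30.4 CPM (SD, n = 4 each), with a log2 fold change of 0.46 (SE 0.11). Adam17 and Adam10, the main proteases known to release EGFR ligands, did not pass the test at -0.24 (adjusted p 0.0703) and -0.50 (adjusted p 0.137), and were picked for mention after their values were seen.

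Of 22 genes for adaptors and the RAS and MAP kinase core, 4 were higher (Gab1, Gab2, Braf and Hras), 2 were lower (Shc1 and Ptpn11) and 16 did not pass the test, with a median log2 fold change of 0.06. These were 18.2% and 9.09% of the list, under the 19.6% and 19.5% of all tested genes, so the count is no result about the list. Shc1, the adaptor that links phosphorylated receptors to GRB2, was at 152, 178, 178 and 165 CPM in VC tumours 1 to 4 and at 102, 114, 112 and 98.8 CPM in miR-21-KD tumours 1 to 4. All miR-21-KD tumours lay well below all VC tumours, with a log2 fold change of -0.66 (SE 0.09) and an adjusted p of 0.00501 in edgeR. Gab1, a docking protein that recruits PI3 kinase, was at 53.6, 29.1, 29.1 and 31.1 CPM in VC and at 99.8, 61.3, 90.7 and 78.4 CPM in miR-21-KD tumours 1 to 4, with a log2 fold change of 1.21 (SE 0.23) and an adjusted p of 0.00850. Braf, a kinase upstream of MEK, rose from 32.3 to 51.3 CPM in VC tumours to 58.2 to 73.6 CPM in miR-21-KD ones, without overlap, with a log2 fold change of 0.75 (SE 0.16).

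Among 18 genes that restrain the receptors or carry them through the cell, 6 were higher (Eps15, Ptpn1, Sh3kbp1, Cblb, Ptprj and Lrig3) and 2 were lower (Lrig1 and Lrig2), with a median log2 fold change of 0.22. The 44.4% of the list that passed the test was near the 39.1% of all tested genes. Lrig1, a membrane protein that promotes the degradation of ERBB receptors, was at 125, 197, 166 and 182 CPM in VC tumours 1 to 4 and at 36.8, 110, 73.9 and 54.4 CPM in miR-21-KD tumours 1 to 4. The groups did not overlap, and VC tumour 1 and miR-21-KD tumour 2 were again those nearest to the other group. The log2 fold change of Lrig1 was -1.28 (SE 0.31) with an adjusted p of 0.0151 in edgeR. Eps15, an endocytic adaptor first known as a substrate of EGFR, rose from 186 ± 27.7 to 286 ± 25.1 CPM with a log2 fold change of 0.62 (SE 0.12), and Ptpn1, a tyrosine phosphatase, from 141 ± 21.9 to 194 ± 8.72 CPM with 0.47 (SE 0.11), a call lost without VC tumour 3 (adjusted p 0.0513).

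Of 17 genes known to be induced by MAP kinase signalling or to act back on it, 5 were lower (Spry1, Spry4, Spred2, Etv4 and Ccnd1), 2 were higher (Ier3 and Epha4) and 10 did not pass the test, with a median log2 fold change of -0.30. The 41.2% that passed was near the 39.1% of all tested genes, with 29.4% lower beside 19.5%. Spry1, a feedback inhibitor of receptor tyrosine kinase signalling, was at 23.0, 65.1, 28.5 and 66.3 CPM in VC tumours 1 to 4 and at 8.81, 12.5, 12.9 and 12.3 CPM in miR-21-KD tumours 1 to 4. The VC tumours formed a lower and a higher pair, and both lay above the miR-21-KD tumours, with a log2 fold change of -1.97 (SE 0.36) and an adjusted p of 0.00759 in edgeR. Spry4 fell from 29.9 ± 7.04 to 16.1 ± 3.77 CPM, with a log2 fold change of -0.90 (SE 0.21), and Spred2, a related inhibitor, from 46.9 ± 6.93 to 28.4 ± 3.90 CPM, with -0.73 (SE 0.14) (SD, n = 4 each). These inhibitors limit the signal as well as being induced by it, and RNA levels alone give no measure of receptor activity. In each of these lists most calls were lost in the test for changes above 1.5-fold, which left 1 gene higher in the list for ligand release, 1 gene lower in MAP kinase output and 0 in the other lists.

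**Figure D4:**
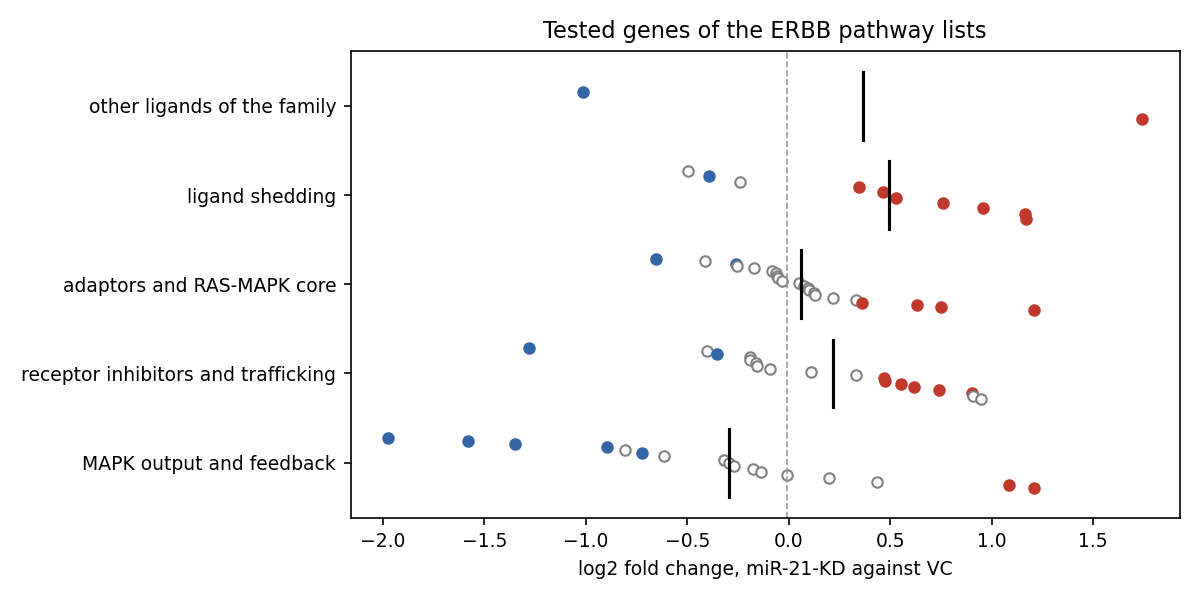
Log2 fold change of miR-21-KD against VC tumours for every tested gene of the 5 pathway lists, with 1 point per gene, red or blue where the adjusted p was under 0.05 with a higher or lower level and open elsewhere. Black bars mark the median of each list, from -0.30 for MAP kinase output to 0.50 for ligand shedding, and the dashed line marks the median of all tested genes at -0.01.

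The order of the tumours recurred from member to member. VC tumour 1 was the highest VC tumour for 7 of the 9 tested members and VC tumour 3 for the other 2. In the miR-21-KD group tumour 3 was the highest for 7 of the 9, and tumour 1 was the lowest for 5. Egfr departed from this order, since its highest value was in miR-21-KD tumour 1, the tumour in which Tgfa was lowest. When both VC tumour 1 and miR-21-KD tumour 2 were left out, a choice made after seeing the data because their mean epithelial and adipocyte marker levels lay nearest the other group, 5 members were higher, the 4 above and Ereg (log2 fold change 1.85, adjusted p 0.00917), and the log2 fold changes were 2.08 for Egfr and 3.35 for Erbb3. These were also the highest VC and the lowest miR-21-KD tumour for Egfr, Erbb3 and Ereg, so their removal had to widen these differences, and the values are no support for the calls. Of all genes tested in that fit, 3413 were higher and 3086 lower, beside 2826 and 2800 with all tumours.

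Marker genes of several cell types were higher in the miR-21-KD tumours, and their part in the values above was not tested. These counts stand beside the 19.6% higher and 19.5% lower of all tested genes. Of 9 markers of carcinoma and simple epithelium 7 were higher and 1, Krt18, was lower, whereas their summed level overlapped between the groups. Of 6 markers of hormone-sensing luminal epithelium 5 were higher, with sums of 148 to 288 CPM (VC) and 259 to 408 CPM (miR-21-KD). Of 7 basal and myoepithelial markers 5 were higher, with sums of 127 to 231 and 237 to 591 CPM.

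Stromal and immune lists differed among themselves. All 5 adipocyte markers were higher, summing to 85.2 to 320 CPM (VC) and 428 to 1120 CPM (miR-21-KD), as were 5 of 7 fibroblast markers (3060 to 8040 and 10500 to 23400 CPM), 6 of 7 macrophage markers (2500 to 3750 and 5030 to 7900 CPM) and 4 of 7 T cell markers (47.5 to 186 and 158 to 347 CPM). For the adipocyte, fibroblast, basal, macrophage, Schwann cell, squamous and neutrophil lists VC tumour 1 had the highest VC sum and miR-21-KD tumour 2 the lowest miR-21-KD sum, the same tumours that met at the boundary for Egfr and Erbb3. The sums of the carcinoma, luminal, T cell, mast cell, endothelial and skeletal muscle lists did not have this order, and for T cells VC tumour 1 was at 105 CPM and miR-21-KD tumour 2 at 234 CPM. A sum is weighted by its most abundant genes. In mean log2 CPM, VC tumour 4 (-0.15 from the mean of all tumours) and not VC tumour 1 (-0.38) was the highest VC tumour for the macrophage list. By the same measure the carcinoma list did have this order, with VC tumour 1 at 0.11 and miR-21-KD tumour 2 at 0.05. So did the luminal list, at -0.37 and 0.62, whereas the T cell, mast cell and endothelial lists did not. Of the 3 tested Schwann cell markers out of 5, 1 was higher, Sox10, with sums of 4.90 to 12.5 and 7.86 to 34.7 CPM. Endothelial and mast cell lists had 1 higher gene each of 5 and 6, with sums of 353 to 629 and 515 to 735 CPM and of 168 to 368 and 266 to 339 CPM, and neutrophil markers had 0 of 4 tested, with 266 to 740 and 338 to 589 CPM. Squamous markers, of which 4 of 8 were tested, had 2 higher and 1 lower, with sums of 5.39 to 35.0 and 6.37 to 32.4 CPM, and skeletal muscle markers, 0 of 5 tested, summed to at most 4.93 CPM. No listed marker gene was at 0 in all 8 tumours.

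**Figure D5:**
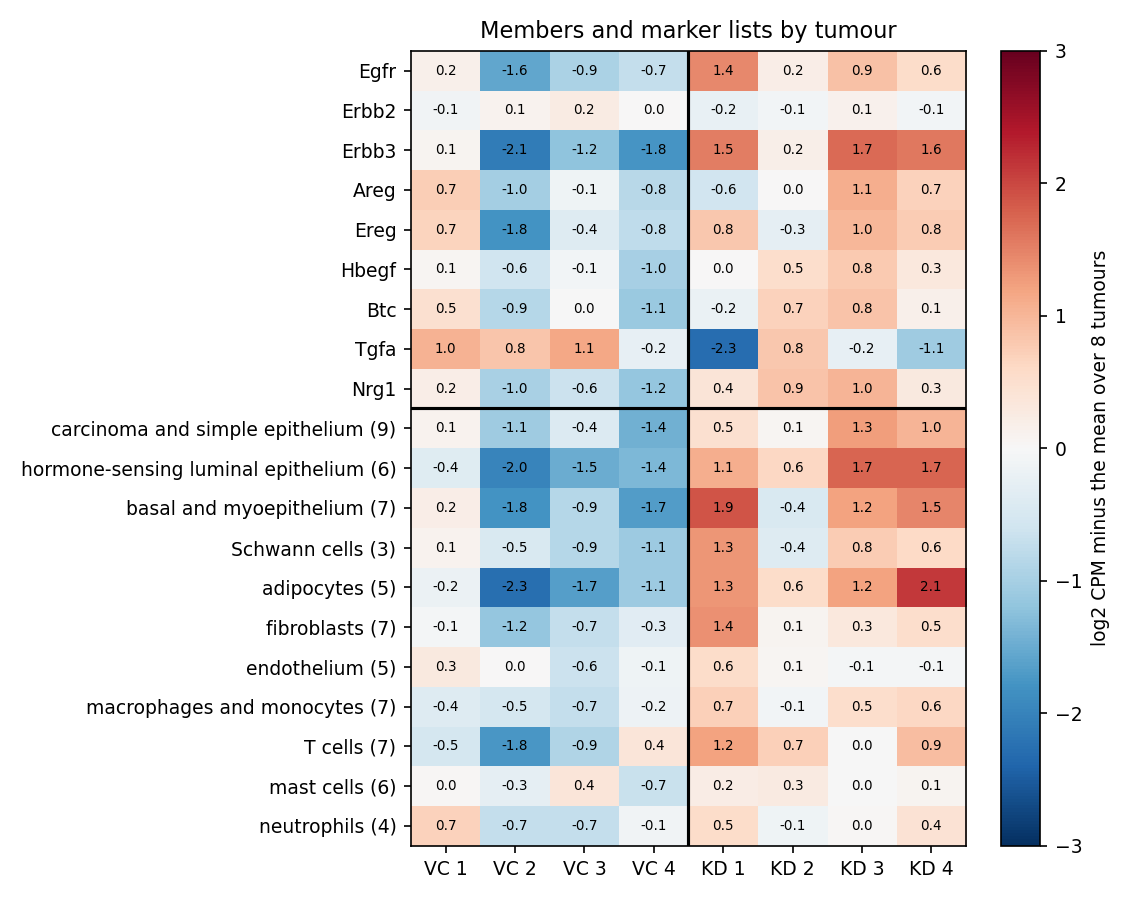
Log2 CPM minus its mean over the 8 tumours, by colour and number, for the 9 tested members (upper rows) and as the mean over the tested genes of each marker list (lower rows, number of genes in brackets). In the VC group tumour 1 stands above the other tumours for most members and for the epithelial lists, and Tgfa in miR-21-KD tumour 1 is at -2.29.

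For each member past the threshold, the pair of genes with the most similar profile over the 8 tumours was found by the root mean square difference of centred log2 CPM. For Egfr these were Plpp3 and Ptprg, with differences of 0.10 and 0.13 on the log2 scale and log2 fold changes of 1.40 and 1.37. For Erbb3 they were Rnf208 and Tnfaip6, with differences of 0.23 and 0.24 and log2 fold changes of 2.42 and 2.27. Hbegf was most like Basp1 and Wwc1, both at a difference of 0.15, with log2 fold changes of 0.62 (adjusted p 0.0637 in edgeR) and 0.76, and Nrg1 was most like Nipal1 (0.11) and Rassf8 (0.19), with log2 fold changes of 1.28 and 1.01.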

How the data were processed

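The authors deposited raw read counts for each Entrez gene in 1 table, with a column per tumour and no normalization. The submitters' processing notes name mm10, Subread, featureCounts, edgeR and limma. Versions, annotation and strand setting are not given in the sources used here, so reads of overlapping or antisense genes may not be separable. RefSeq gave symbols for 25275 of the 27179 identifiers. The genes and lists were chosen with earlier results of these data known.

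With edgeR 4.0.16 (R 4.3.3), low counts were removed by filterByExpr (minimum count 10, minimum total 15), libraries scaled by TMM (factors 0.968 to 1.02), and miR-21-KD compared with VC tumours by the robust quasi-likelihood test, adjusted over 14382 genes (Benjamini-Hochberg, threshold 0.05, no minimum fold). CPM use the filtered library size times the TMM factor, log2 CPM a prior count of 2, and folds are fitted values (2 to the power of the log2 fold change), which differ slightly from ratios of mean CPM. Levels per kb divide by the union of exons in GENCODE M21 basic, which need not match the authors' annotation. The limit for a count of 0 is 3 counts per library. This limit covers counting error only, whereas the SE of a log2 fold change includes the spread between tumours. No pair of tumours of a group agreed within sampling noise (chi-square per degree of freedom 10.3 to 57.8).

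Named genes were all members, all other ligands of the family, the 3 genes of smallest adjusted p in each pathway list and the 2 most similar profiles per called member. Tumours of the same number deviated together from their group means, with correlations of 0.272, 0.421, 0.175 and 0.376, and the labels name no source of the pairing. Alternatives were DESeq2 1.42.0, other scalings and filters, limma-voom (limma 3.58.1) with and without quality weights, the replicate block, stricter thresholds, each tumour left out and, added after seeing the data, VC tumour 1 and miR-21-KD tumour 2 left out together (chosen for mean epithelial and adipocyte marker levels nearest the other group) and shares not divided by length. On simulated counts for this comparison (14253 genes run), 91.9% of 4-fold and 53% of 2-fold changes were found, with 7 false calls. The simulation changed far fewer genes than were called here and drew all tumours independently, so these rates need not hold for the data.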

Additional observations from a re-analysis of the deposited data

Results flagged for a closer look

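The 10 members and the genes of the 5 pathway lists, 82 genes in all, gave 162 groups of 4 tumours with any spread. In 15 of these groups the highest or lowest tumour lay apart from the other 3 by more than the 95% critical value of Dixon's gap test, which chance passes in about 1 in 20 groups. Of the members 1 was among them, Erbb4 in VC tumour 1 at 0.0737 CPM, a single read, with the other 3 VC tumours at 0.

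In the VC group, Gab1 in tumour 1 was at 53.6 CPM with the others between 29.1 and 31.1, and Stub1 in tumour 1 was at 17.8 CPM with the others between 21.6 and 21.7. Ksr1 in tumour 2 was at 30.9 CPM with the others between 21.2 and 22.8. In tumour 4, Ptpn1 was at 173 CPM with the others between 127 and 134, Grb2 at 176 CPM with the others between 138 and 143, Araf at 80.9 CPM with the others between 83.3 and 83.6, and Epha2 at 97.8 CPM with the others between 159 and 166.

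Among miR-21-KD tumours, tumour 1 was apart for Adam12 at 67.3 CPM with the others between 32.4 and 34.7, Adam19 at 161 CPM with the others between 95.9 and 107, Adam17 at 191 CPM with the others between 155 and 160, Rnf41 at 32.7 CPM with the others between 44.6 and 46.2, and Spry1 at 8.81 CPM with the others between 12.3 and 12.9. Dusp5 in tumour 2 was at 19.2 CPM with the others between 12.7 and 13.5, and Socs4 in tumour 4 was at 6.81 CPM with the others between 12.5 and 13.2.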

How the results depend on the processing

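No member changed direction under any of 19 alternatives. Among these, the test for changes above 1.5-fold and the adjusted p under 0.01 reuse the main fold changes, so they could not change a direction or add a call. Erbb2, Areg and Btc never passed the threshold and Ereg and Tgfa passed it in 4 and 2 alternatives (for Ereg, 1 of these was the joint removal of VC tumour 1 and miR-21-KD tumour 2, chosen after seeing the data as nearest the other group in mean epithelial and adipocyte marker levels, and for Ereg the highest VC and lowest miR-21-KD tumours), while Erbb3 lost its call in 2, Egfr and Nrg1 in 3 each and Hbegf in 9. With the replicate block, 5 members were higher and 0 lower, Ereg being added, and it changed no other call among members (Egfr 1.53, Erbb3 2.52, Hbegf 0.82, Nrg1 1.30 on the log2 scale). The block moved the adaptor list to 5 higher and 3 lower, MAP kinase output to 7 lower and all genes to 3309 higher and 3176 lower. The test for changes above 1.5-fold left 0 members higher, 0 other ligands in either direction, 1 higher and 0 lower in shedding, 0 and 0 among adaptors and among inhibitors, 0 and 1 in MAP kinase output, and 334 and 208 of all genes. An adjusted p under 0.01 left 0 members, 0 other ligands in either direction, 2 and 0 in shedding, 1 and 1 among adaptors, 1 and 0 among inhibitors, 0 and 2 in MAP kinase output, and 670 and 756 of all genes. Library size alone gave 2 lower genes in shedding. Upper-quartile scaling, no filter and at least 10 counts in every tumour each gave 1 lower adaptor, and the last gave 0 other ligands higher. Quality weights gave 1 member lower (Tgfa), 2 lower in shedding and 5 lower adaptors. The cause of these shifts was not tested.

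With each tumour left out, higher and lower calls ranged from 1 to 5 and 0 to 1 for members (1 without VC tumour 3), 1 to 1 and 0 to 1 for other ligands, 4 to 7 and 0 to 2 for shedding, 2 to 4 and 1 to 4 for adaptors, 1 to 6 and 1 to 2 for inhibitors, 1 to 2 and 3 to 8 for MAP kinase output, and 1449 to 3290 and 1487 to 3550 for all genes. Erbb4, Egf and Epgn were left out by the filter on low counts, and Nrg3 had no reads. Without division by length the difference in share moved from 1.26 to 4.74 percentage points for Nrg1 from 0.406 to 0.845 for Ereg, from 0.37 to 0.621 for Btc and from 0.0262 to 0.0412 for Erbb4, and by less than 1.5 times for the other members.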
